A study of Mus musculus with 6 samples.

Results

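The conjugation enzymes of autophagy were examined as 7 genes, *Atg3*, *Atg5*, *Atg7*, *Atg10*, *Atg12*, *Atg16l1* and *Atg16l2*. They were chosen by name for their place in the pathway rather than by a measured value, although earlier results of these data were known. All 7 were among the 16579 genes of the expression table and all 7 were among the 12256 genes expressed highly enough to be tested. RNA was sequenced from MKs (megakaryocytes, the platelet-forming cells) that had been sorted from mouse bone marrow by FACS at 3 months of age. The control group held 3 libraries from Becn1f/f mice, in which both copies of *Becn1* carry loxP sites and no Cre is stated. The other group held 3 libraries labelled Becn1f/f;Pf4-iCre, in which the same floxed gene is combined with a Cre recombinase driven by *Pf4* (platelet factor 4) sequence, so that deletion is directed to the megakaryocytic lineage. The comparison asked how gene expression in MKs differs when *Becn1*, which encodes the Beclin 1 subunit of the autophagy lipid kinase, is targeted in this lineage.

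Autophagy encloses cell material in a membrane that is later delivered to the lysosome, and growth of that membrane needs a pair of conjugation reactions that resemble ubiquitin transfer. Atg7 is the activating enzyme of both reactions. Atg10 then passes the small protein Atg12 to Atg5, and Atg3 passes LC3 and its GABARAP relatives to a membrane lipid, phosphatidylethanolamine. The Atg12-Atg5 conjugate joins Atg16l1 and acts as the ligase that places LC3 lipidation on the forming membrane, while Beclin 1 works upstream, in the kinase complex whose lipid product recruits WIPI proteins and, through them, Atg16l1. Platelets and MKs are known to carry out autophagy.

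Library totals lay between 16467560 and 17156728 estimated counts. *Becn1* was 118 ± 9.37 CPM (counts scaled to a common library size, SD, n = 3) in Becn1f/f libraries and 107 ± 2.74 CPM in the libraries labelled Becn1f/f;Pf4-iCre, with a log2 fold change of -0.15 (95% interval -0.42 to 0.12). Levels of the targeted gene overlapped, at 108.8 to 127.5 CPM in Becn1f/f libraries and 104.4 to 109.8 CPM in the other group. The exact two-sided permutation test gave p = 0.2, where the smallest p possible for 3 against 3 is 0.1. The counts are sums over the gene that do not single out the floxed exons. Markers of MKs and of other marrow cells were both present over a wide range of FPKM (the level scaled for transcript length and library size). In Becn1f/f libraries the MK markers *Nfe2*, *Itga2b* (CD41), *Pf4* and *Gp9* had means of 96.1, 55.7, 17.9 and 2.10 FPKM. *Nfe2* was the highest of the MK list and *Mpig6b* the lowest, at 0.18 FPKM. The macrophage list ran from 6154 FPKM for *Lyz2* to 0.197 and 0.0367 FPKM for *Mertk* and *Marco*. Between these lay *Mrc1* and *Cd163*, at 1.88 and 1.23 FPKM. The neutrophil list ran from 10270 FPKM for *S100a8* to 19.2 FPKM for *Cxcr2*. Shares of counts in this paragraph are summed CPM, relative to the scaled library size of the tested genes rather than to all counts. The 16 MK and platelet markers took 0.0437% to 0.0530% in Becn1f/f libraries and 0.0440% to 0.0501% in the other group. Of the 15 tested ones, 11 were lower in the latter, and *Pf4* was at 17.9 ± 5.46 and 8.80 ± 1.39 FPKM (SD, n = 3 each), without overlap (log2 fold change -1.01, unadjusted *P* = 0.00446 and adjusted p = 0.423 in edgeR). *Gata1* had a log2 fold change of -0.44 (unadjusted *P* = 0.0175 in edgeR). The 12 macrophage markers took 0.459% to 0.616% and 0.628% to 0.793%, with 10 of the 11 tested ones higher in the latter. Most of this share was *Lyz2* alone, at 4539 ± 767 and 5989 ± 802 CPM (SD, n = 3 each). Log2 fold changes in the list ran from -0.20 for *Vcam1* to 1.26 for *Mrc1*, with *Adgre1* at 0.0015 and *Cd68* at 0.14. Of the 12 neutrophil markers, which took 1.14% to 1.61% and 0.874% to 1.19% of counts, 11 were lower in the libraries labelled Becn1f/f;Pf4-iCre, and 12 of 12 erythroid markers were lower too (0.0648% to 0.0975% and 0.0509% to 0.0648% of counts). The remaining lists took 0.444% to 0.85% and 0.350% to 0.526% (9 mast cell, basophil and eosinophil markers), 0.0146% to 0.0264% and 0.0148% to 0.0196% (8 B cell markers), 0.00562% to 0.00675% and 0.00420% to 0.00585% (8 measured T and NK cell markers) and 0.0114% to 0.0132% and 0.0102% to 0.0125% (8 endothelial and stromal markers). No measured marker was at 0 in all 6 libraries. The part of cell make-up in the results that follow was not tested, and in bulk RNA fewer cells of a type and less RNA per cell cannot be told apart.

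The 7 genes spanned a 14.4-fold range of mean FPKM over the 6 libraries, and their order was nearly the same in every library. *Atg3* was the most abundant at 57.0 ± 3.11 FPKM (SD over the 6 libraries), followed by *Atg7* at 34.3 ± 2.49, *Atg12* at 30.7 ± 3.34, *Atg5* at 19.98 ± 2.08, *Atg16l1* at 12.2 ± 1.35, *Atg16l2* at 8.60 ± 0.732 and *Atg10* at 3.96 ± 0.486 FPKM. Both transfer enzymes therefore stood at the ends of the order, with the LC3 enzyme at the top and the Atg12 enzyme at the bottom. *Atg3* was higher than *Atg7* in 6 of 6 libraries, with a ratio of means of 1.66 in FPKM and no overlap of their ranges. *Atg7* and *Atg12* were the only neighbours whose FPKM ranges overlapped, with *Atg7* higher in 5 of 6 libraries, so their order was not resolved. The remaining neighbours kept their order in 6 of 6 libraries without overlap, with FPKM ratios of 1.54 for *Atg12* over *Atg5*, 1.63 for *Atg5* over *Atg16l1*, 1.42 for *Atg16l1* over *Atg16l2* and 2.17 for *Atg16l2* over *Atg10*. Among all tested genes, the mean FPKM of *Atg3* was at the 86.1 percentile, that of *Atg16l1* at 49.9 and that of *Atg10* at 26.6. These positions describe mRNA only, and the FPKM scale also depends on the transcript length assigned to each gene.

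**Figure D1:**
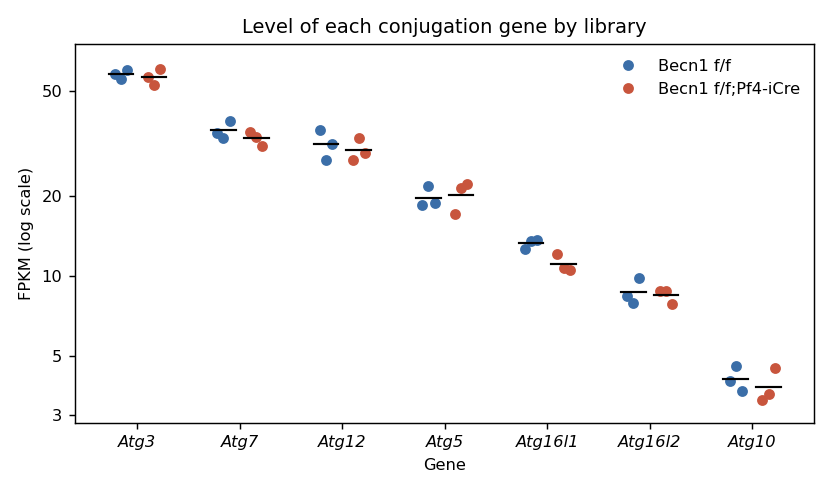
Level of each conjugation gene in each library, in FPKM on a log axis, with Becn1f/f libraries in blue, libraries labelled Becn1f/f;Pf4-iCre in red and group means as black lines. The genes keep their order from *Atg3* to *Atg10* apart from *Atg7* and *Atg12*, whose ranges overlap, and *Atg16l1* is the gene whose groups do not overlap.

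The sequences in front of *Atg3* and *Atg10* are shown because these genes encode the conjugating enzymes of the 2 reactions and stood at the top and bottom of the level order. Each comes from the 250 bases before the annotated RefSeq start in GRCm38.p6, 5′ to 3′ on the gene's strand. Bases inside the gene as GENCODE M21 places it are left out. That leaves 206 bases at chr16:45158579-45158784 (plus strand) for *Atg3*, and all 250 bases at chr13:91223988-91224237 (minus strand) for *Atg10*. The *Atg10* sequence stops short of that gene's GENCODE start at 91223968. Capitals mark matches on either strand to CACGTG (an E-box), GTAAACA (forkhead), CCGGAAG (ETS), GGGCGG (GC box), CCAAT or TATAAA, and none of the marked matches overlap each other.
Atg3: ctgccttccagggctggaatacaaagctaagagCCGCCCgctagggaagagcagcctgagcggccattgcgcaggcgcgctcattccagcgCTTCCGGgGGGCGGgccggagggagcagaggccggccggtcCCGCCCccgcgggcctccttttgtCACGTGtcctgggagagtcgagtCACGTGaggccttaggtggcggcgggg
Atg10: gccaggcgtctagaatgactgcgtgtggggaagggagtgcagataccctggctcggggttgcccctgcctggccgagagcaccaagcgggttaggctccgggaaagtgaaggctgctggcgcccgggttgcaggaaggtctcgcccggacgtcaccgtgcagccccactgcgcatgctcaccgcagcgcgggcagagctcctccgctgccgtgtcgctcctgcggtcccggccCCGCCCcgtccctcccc
The *Atg3* sequence shown held 2 matches to CACGTG, 1 to CCGGAAG and 3 to GGGCGG, and the *Atg10* sequence held 1 match to GGGCGG. The GC contents of the full 250-base windows were 68.0% and 70.8%, with 21 and 23 CG dinucleotides. The medians were 52.4% and 6 over all 32851 such windows, which belong to 27025 genes. Of the 7 genes, 5 were matched in the RefSeq table (*Atg3*, *Atg5*, *Atg7*, *Atg10* and *Atg16l2*). The window of *Atg7* lies wholly inside the gene as GENCODE places it, and 163 bases of the *Atg16l2* window do so, so these windows are not called upstream sequence. In the full 250-base windows, CACGTG was present for *Atg3*, *Atg5* and *Atg7*, for *Atg7* inside the gene as GENCODE places it. The share of all genes with a match in any full window was 6.86% for CACGTG, 35.4% for GGGCGG and 7.83% for CCGGAAG. It was 37.5% for CCAAT, 14.3% for TATAAA and 3.54% for GTAAACA. A match of letters is a description of the window and was not tested for binding.

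None of the 7 genes was a DEG between the genotypes. A DEG had to differ at least 1.5-fold, up or down, with an unadjusted *P* below 0.05 in the quasi-likelihood test of edgeR, and 2.3% of all tested genes met both criteria. At an unadjusted *P* under 0.05 alone, 0 of the 7 genes passed, against 6.31% of tested genes, and 0 had an adjusted p under 0.05, against 0.0408%. DESeq2 likewise called 0 of the 7. The log2 fold change was positive for 1 gene, *Atg5*, and negative for the other 6, where 54.5% of all tested genes were lower in the libraries labelled Becn1f/f;Pf4-iCre. The median log2 fold change of the 7 was -0.07, beside -0.02 over all tested genes, and the median absolute log2 fold change was 0.07, beside 0.13. The 95% interval of each of the 7 lay inside a 1.5-fold change in either direction (0.58 on the log2 scale). Such intervals were not counted over all tested genes, so this is not shown to be particular to the 7. Normalized levels were separated by genotype, without overlap, for 1 of the 7, *Atg16l1*, and for 10.6% of all tested genes. The labels do not state whether libraries of a genotype came from separate animals, so p-values measure only the spread between these libraries, and the exact permutation test of 3 against 3 cannot give a p below 0.1.

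**Figure D2:**
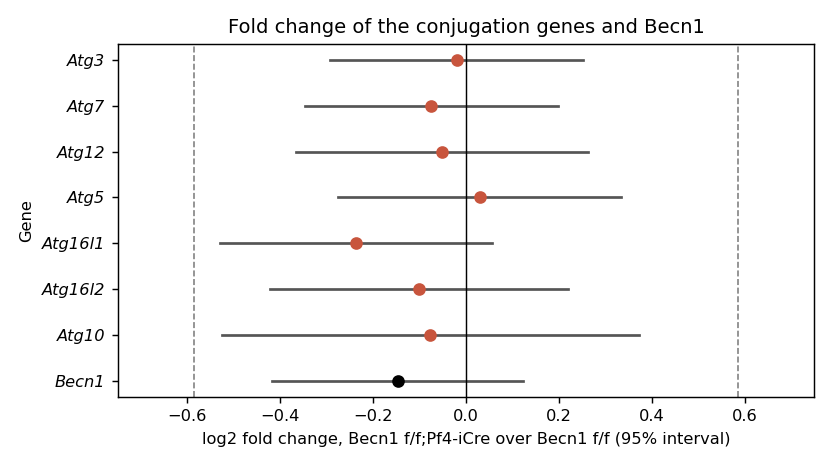
Log2 fold change of each conjugation gene and of *Becn1*, libraries labelled Becn1f/f;Pf4-iCre over Becn1f/f libraries, as points with 95% intervals from edgeR's quasi-likelihood fit (n = 3 libraries per genotype). Dashed lines mark a 1.5-fold change, and all the intervals cross 0 and stay between the dashed lines.

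*Atg7*, the shared activating enzyme, lies on chromosome 6, positions 114643097 to 114860614 (plus strand) in GRCm38. It was at 34.7, 33.2 and 38.5 FPKM in Becn1f/f libraries 1, 2 and 3, and at 35.0, 33.6 and 31.0 FPKM in libraries 1, 2 and 3 labelled Becn1f/f;Pf4-iCre. The highest and the lowest library belonged to different genotypes, but the ranges overlapped. The log2 fold change was -0.07 (standard error 0.125, 95% interval -0.35 to 0.20, adjusted p = 0.976 by the edgeR quasi-likelihood test, Benjamini-Hochberg adjusted; exact permutation p = 0.4).

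*Atg3*, the conjugating enzyme of the LC3 branch, lies on chromosome 16, positions 45158785 to 45188538 (plus strand). Its levels were 58.0, 55.2 and 60.0 FPKM in Becn1f/f libraries and 56.1, 52.4 and 60.6 FPKM in the libraries labelled Becn1f/f;Pf4-iCre, so that both extremes came from the latter group. The log2 fold change was -0.02 (standard error 0.125, 95% interval -0.29 to 0.25, adjusted p = 0.992 from the edgeR test; exact permutation p = 0.8). *Atg10*, the conjugating enzyme of the Atg12 branch, lies on chromosome 13, positions 90935356 to 91223968 (minus strand). It was at 4.01, 4.58 and 3.70 FPKM in Becn1f/f libraries and at 3.4, 3.6 and 4.49 FPKM in the other group, with ranges that overlapped over most of their width. *Atg10* had the fewest counts of the 7 (76 to 99 per library) and the widest interval, with a log2 fold change of -0.08 (standard error 0.206, 95% interval -0.53 to 0.37, adjusted p = 0.985 from the edgeR test; exact permutation p = 0.6). Its coefficient of variation between libraries, 10.9% and 11.9% in the 2 genotypes, was close to the 10.9% that counting error alone gives at this depth.

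*Atg12*, the ubiquitin-like protein that Atg10 passes to Atg5, lies on chromosome 18, positions 46730144 to 46741580 (minus strand). It was at 35.7, 27.4 and 31.5 FPKM in Becn1f/f libraries and at 27.4, 33.2 and 29.1 FPKM in the other group. The Becn1f/f libraries spread most for this gene, with a coefficient of variation in CPM of 16.04%, against 6.38% in the libraries labelled Becn1f/f;Pf4-iCre and a counting error of 3.07%. The log2 fold change was -0.05 (standard error 0.144, 95% interval -0.37 to 0.26, adjusted p = 0.985 from the edgeR test; exact permutation p = 0.8). *Atg5*, its acceptor, lies on chromosome 10, positions 44268358 to 44364291 (plus strand) and was at 18.5, 21.8 and 18.9 FPKM in Becn1f/f libraries and 17.1, 21.4 and 22.2 FPKM in the other group. Both extremes again came from the libraries labelled Becn1f/f;Pf4-iCre, and the log2 fold change was 0.03 (standard error 0.14, 95% interval -0.28 to 0.33, adjusted p = 0.992 from the edgeR test; exact permutation p = 0.7). Without Becn1f/f library 1 the log2 fold change of *Atg12* was 0.09 in place of -0.05, and neither value approached the test's threshold.

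*Atg16l1*, the scaffold that brings the conjugate to the membrane, had the largest difference of the 7. The gene lies on chromosome 1, positions 87755870 to 87792428 (plus strand). Its normalized levels were 36.5, 37.3 and 36.9 CPM in Becn1f/f libraries 1, 2 and 3 and 35.0, 29.6 and 29.3 CPM in libraries 1, 2 and 3 labelled Becn1f/f;Pf4-iCre. All 3 libraries of the latter group were below all 3 controls, with library 1 nearest to them. The means were 36.9 ± 0.387 and 31.3 ± 3.21 CPM (SD, n = 3 each), or 84.9% of the control level. On the FPKM scale the values were 12.7, 13.6 and 13.7 against 12.2, 10.7 and 10.6, again without overlap. The difference did not pass the edgeR test, with a log2 fold change of -0.24 (standard error 0.134, 95% interval -0.53 to 0.06, unadjusted *P* = 0.103, adjusted p = 0.884 with Benjamini-Hochberg adjustment), and the exact permutation p of 0.1 is the smallest that 3 against 3 can give. With each library left out in turn, the log2 fold change lay between -0.32 and -0.19 and the unadjusted *P* between 0.0374 and 0.276. The lowest *P* was obtained without library 1 labelled Becn1f/f;Pf4-iCre, and the 1.5-fold threshold was not reached in any of these fits. The Becn1f/f libraries varied by 1.05% in CPM, less than the 4.17% that counting error gives, and the other group by 10.3%.

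*Atg16l2* encodes the paralog of Atg16l1, which can bind Atg5 but does not replace Atg16l1 in starvation-induced autophagy. It lies on chromosome 7, positions 101263034 to 101302251 (minus strand). Its levels were 8.41, 7.94 and 9.84 FPKM in Becn1f/f libraries and 8.81, 8.77 and 7.83 FPKM in the libraries labelled Becn1f/f;Pf4-iCre, and the lowest value of each group was nearly the same. The log2 fold change was -0.10 (standard error 0.147, 95% interval -0.42 to 0.22, adjusted p = 0.973 from the edgeR test; exact permutation p = 0.5). The annotation shares 25 exon bases between *Atg16l2* and *Fchsd2* on the opposite strand, and whether the counting used strand is not given in the sources used here. Shared sequence was otherwise small, with at most 0.325% of the 50-base stretches of any of the 7 genes' transcripts found in transcripts of other genes.

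The balance of the paralogs was compared within each library. The ratio of *Atg16l2* to *Atg16l1* in FPKM was 0.662, 0.585 and 0.720 in Becn1f/f libraries and 0.725, 0.820 and 0.741 in the libraries labelled Becn1f/f;Pf4-iCre, which were all higher. The difference of the log2 ratios was 0.22 (exact two-sided permutation test, p = 0.1, the smallest possible). On the CPM scale, which has no length term, the ratios were 0.593, 0.506 and 0.611 against 0.593, 0.694 and 0.597, the groups overlapped and the difference was 0.14 (exact permutation p = 0.5). Without Becn1f/f library 2 the FPKM difference was likewise 0.14. The separation seen in FPKM was therefore not present in CPM. The ratio of *Atg12* to its acceptor *Atg5* was 1.93, 1.26 and 1.67 in FPKM against 1.6, 1.55 and 1.31, a log2 difference of -0.10 that lay within the spread between libraries (exact permutation p = 0.7), and in CPM the log2 difference was -0.07 (exact permutation p = 0.7).

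**Figure D3:**
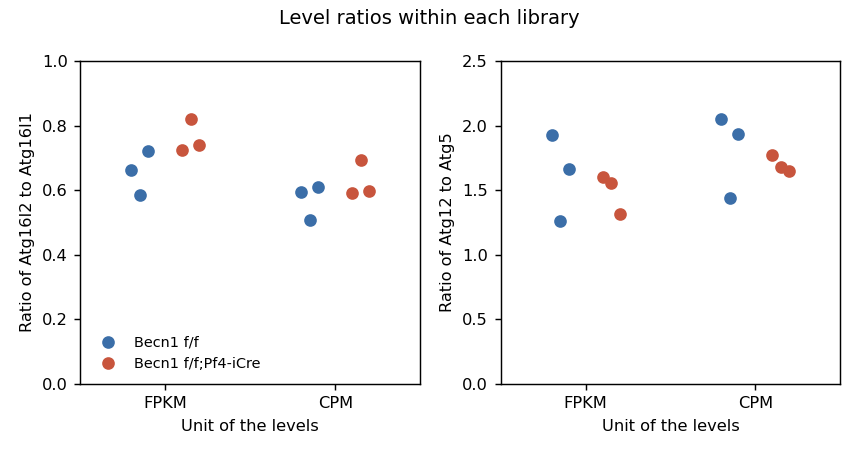
Ratios of levels within each library, *Atg16l2* to *Atg16l1* at left and *Atg12* to *Atg5* at right, each from FPKM and from CPM, with axes starting at 0, Becn1f/f libraries in blue and libraries labelled Becn1f/f;Pf4-iCre in red (n = 3 each). The paralog ratio is separated by genotype in FPKM and overlaps in CPM, and the *Atg12* to *Atg5* ratio overlaps in both.

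The length that links count and FPKM was recovered for each gene and library as the estimated count divided by FPKM and library total, a comparison chosen after the values were seen. For *Atg16l2* it was 2366 to 2487 bases in Becn1f/f libraries and 2241 to 2354 bases in the libraries labelled Becn1f/f;Pf4-iCre, without overlap. No other gene of the 7 had lengths that separated by genotype, and the share without overlap was 2.85% of the 10366 tested genes with at least 1 FPKM in every library. For *Atg5* the lengths ran from 1692 to 1927 bases, a ratio of 1.14 between the longest and shortest, and for *Atg16l1* from 2778 to 2802 bases, a ratio of 1.01, where the median ratio over those genes was 1.02. The assigned length thus moved between libraries for some of the 7 and hardly for others. Which transcripts the lengths stand for was not tested, since the table gives 1 row per gene.

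None of the substrate genes of these enzymes was a DEG. *Map1lc3b*, which encodes the LC3B protein that Atg3 attaches to lipid, was at 92.7 ± 6.08 FPKM in Becn1f/f libraries and 85.8 ± 8.95 FPKM in the other group (SD, n = 3 each). Its log2 fold change was -0.10 (95% interval -0.40 to 0.21). *Gabarapl2*, a GABARAP-type substrate, was at 67.9 ± 9.17 and 67.7 ± 3.57 FPKM, with a log2 fold change of 0.01 (95% interval -0.32 to 0.33). Over the 5 tested substrate genes, 2 log2 fold changes were positive and 3 negative, the median was -0.00, and 0 were DEGs. *Map1lc3a*, with the next smallest unadjusted *P* of the list, had a log2 fold change of 0.10 (95% interval -0.37 to 0.57).

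*Atg4c*, 1 of the 4 genes for the proteases that prime LC3 and GABARAP proteins and later release them from lipid, was the DEG of the pathway. Its levels were 12.6, 13.7 and 14.2 CPM in Becn1f/f libraries and 18.5, 23.4 and 20.8 CPM in the libraries labelled Becn1f/f;Pf4-iCre, so every library of the latter group was above every control. The log2 fold change was 0.63 (standard error 0.152, 95% interval 0.30 to 0.96, unadjusted *P* = 0.00142, adjusted p = 0.285 by the edgeR quasi-likelihood test, Benjamini-Hochberg adjusted), and 1.36% of all tested genes were DEGs in this direction and 0.938% in the other. The fold change lay near the threshold of 0.58 on the log2 scale, and without library 2 labelled Becn1f/f;Pf4-iCre it was 0.54, under that threshold, as it was in 3 other settings. The remaining 3 *Atg4* genes had negative log2 fold changes, and the median of the 4 was -0.10.

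Across the other steps of autophagy and the related conjugation systems, 57 further genes were listed and all 57 were tested. Log2 fold changes were positive for 28 and negative for 29, with a median of -0.00. Of the 57, 1 was a DEG, where 2.3% of all tested genes were, and at an unadjusted *P* under 0.05 the count was again 1, where the share of all tested genes was 6.31%. Normalized levels of *Atg13*, *Pik3c3* and *Atg4c* did not overlap between genotypes, as was the case for 10.6% of all tested genes. In the list of induction genes, which form the kinase complex that starts autophagy, 4 of 5 log2 fold changes were positive with a median of 0.13, and the genes with the smallest *P*, *Atg13* and *Ulk2*, had log2 fold changes of 0.27 and 0.21. In the list of the class III PI3-kinase, 7 of 8 were positive with a median of 0.07, and *Pik3c3*, the catalytic subunit, had the smallest *P* of the list and a log2 fold change of 0.23, followed by *Becn1*. Genes of membrane supply and the WIPI family gave 4 positive and 7 negative values with a median of -0.04, with log2 fold changes of *Wdr45b* at -0.21 and *Zfyve1* at 0.19. Partners of the Atg12-Atg5-Atg16l1 complex gave 4 positive and 3 negative values with a median of 0.12, with log2 fold changes of *Tmem59* at 0.17 and *Irgm1* at 0.14, and *Rb1cc1* and *Wipi2* stand in this list and in another. Among 19 genes of other ubiquitin-like systems, 7 were positive and 12 negative with a median of -0.04, with log2 fold changes of *Ube2m*, a NEDD8-conjugating enzyme, at -0.30 and *Uba6*, an activating enzyme of ubiquitin, at 0.29. Apart from *Atg4c*, none of these genes passed the DEG thresholds in the edgeR test.

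**Figure D4:**
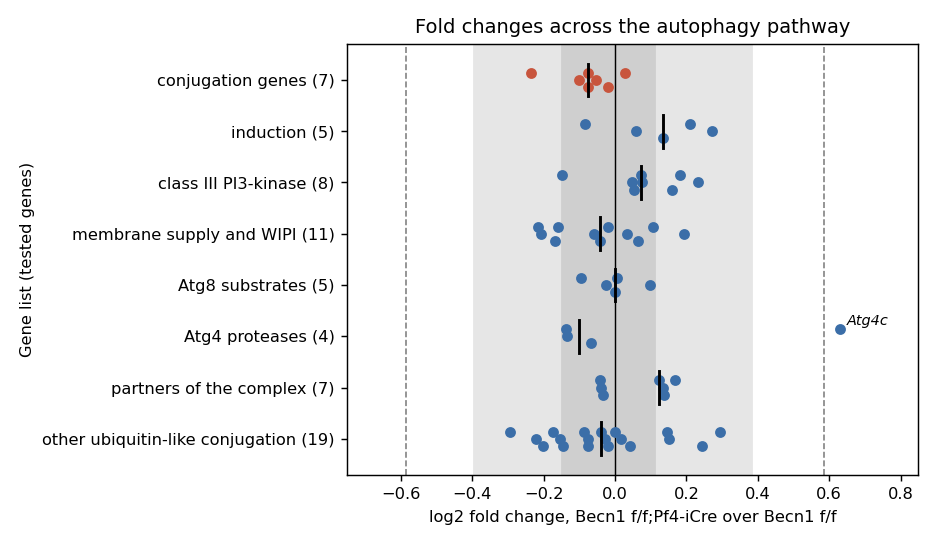
Log2 fold changes (libraries labelled Becn1f/f;Pf4-iCre over Becn1f/f libraries) of the 7 conjugation genes in red and of 7 other gene lists in blue, 1 point per gene, with list medians as black bars. Grey bands hold the middle 50% and 90% of all tested genes, dashed lines mark a 1.5-fold change, and *Atg4c* is the point beyond them.

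For each of the 7 genes, the gene with the most similar profile was sought by Pearson correlation of log2 CPM over the 6 libraries, among 9888 genes with a mean of at least 5 CPM. The values are descriptions, since each is the highest of 9888 and all genes share the same 6 libraries and their scaling. *Atg16l1* ran closest to *Alkbh1* (r = 0.993, Spearman's rho = 1) and *Atg16l2* to *Dgkd* (r = 0.998, rho = 1). *Atg7* was most like *Trak1* (r = 0.995, rho = 0.943), *Atg3* most like *Ccdc84* (r = 0.985, rho = 0.943) and *Atg10* most like *Eif1b* (r = 0.989, rho = 0.771). *Atg12* was most like *Arhgap18* (r = 0.990, rho = 0.943) and *Atg5* most like *Abcg2* (r = 0.982, rho = 1). No gene of the pathway lists was the closest match of any of the 7. At most 57 of the 9888 compared genes belong to those lists, so a match among them was unlikely from the start.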

How the data were processed

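Reads of low quality were removed by the authors, HISAT was used for mapping, and the deposited table holds an estimated count and an FPKM value for each gene. The submitters' processing notes also name Bowtie2 and the build GRCm39 (mm39), and the counting tool is not given in the sources used here. The deposited estimated counts were not normalized and were not whole for 10.3% to 11.3% of genes per library, although those of the 7 conjugation genes were. The deposited FPKM values were scaled by the authors for length and library size. Not used were 16 other columns of per-sample values, 4 of them from a library matching no sample, and 8 columns of group means.

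Counts were rounded, filtered by edgeR's expression filter (12256 genes), TMM-scaled and compared by the quasi-likelihood test of edgeR 4.0.16 (R 4.3.3, genotype only, Benjamini-Hochberg adjustment over all tested genes). Standard errors are the size of the log2 fold change divided by the root of F. DEG thresholds follow the study's methods. Libraries of 1 genotype were further apart than sampling noise (chi-square divided by degrees of freedom, 15.2 to 50.3) and each counted as 1 sample. Gene positions and overlaps came from GENCODE M21 on GRCm38, and promoters from RefSeq GRCm38.p6, which is not the build the authors name. Counting errors given here reflect read sampling alone. The steps were tested on simulated data.

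The 7 genes and the other lists were chosen with earlier results of these data known. Named singly were the 7 genes, *Becn1*, *Map1lc3b*, *Gabarapl2*, genes of each pathway list that were DEGs or otherwise the 2 with the smallest *P*, and the most similar gene of each of the 7. The marker genes given as examples and *Fchsd2* were named outside this rule, after their values were seen, and 1 gene of the lists is not reported here singly. Alternatives were DESeq2 1.42.0, DESeq2 size factors or upper-quartile scaling in edgeR, no filter or at least 10 counts in every library, the replicate number as a block, limma 3.58.1 (voom, and on log2 FPKM with a pseudocount of 1 or 0.1 or a minimum mean FPKM of 1), an adjusted p threshold, and leaving out each library.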

Additional observations from a re-analysis of the deposited data

How the results depend on the processing

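None of the 7 conjugation genes was a DEG in any of the 18 alternatives. In the fits with all 6 libraries, each of the 7 kept the sign of its log2 fold change, and no alternative took one past the DEG thresholds. Leaving out single libraries gave log2 fold changes of -0.064 to 0.043 for *Atg3*, -0.047 to 0.10 for *Atg5*, -0.14 to -0.02 for *Atg7*, -0.18 to -0.00 for *Atg10*, -0.15 to 0.088 for *Atg12*, -0.32 to -0.19 for *Atg16l1* and -0.17 to -0.02 for *Atg16l2*. The sign turned for *Atg3* without Becn1f/f library 1 (0.014) and without library 2 labelled Becn1f/f;Pf4-iCre (0.043), for *Atg5* without Becn1f/f library 3 (-0.047) and without library 2 labelled Becn1f/f;Pf4-iCre (-0.026), and for *Atg12* without Becn1f/f library 1 (0.088). The log2 difference of the *Atg16l2* to *Atg16l1* ratio ran from 0.14 to 0.29, and that of the *Atg12* to *Atg5* ratio from -0.27 to 0.034, positive (0.034) without Becn1f/f library 1.

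Over all tested genes, 282 DEGs became 121 with limma on log2(FPKM + 1), 137 with a minimum mean FPKM of 1 added, 432 with a pseudocount of 0.1 and 5 at an adjusted p under 0.05, and 225 to 410 when single libraries were left out. The single DEG of the pathway lists, *Atg4c*, fell below the fold threshold, leaving 0, with limma on log2(FPKM + 1) with and without the minimum (0.53 in both), without library 2 labelled Becn1f/f;Pf4-iCre (0.54) and when trends with GC content and with transcript length were removed (0.54), which was chosen after seeing the data because log2 fold changes followed GC content (Spearman's rho of -0.35 over 11953 genes, and genes do not replicate each other independently). Leaving out single libraries gave 0 to 1 pathway DEGs, and the cause of these changes was not tested.

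The genotypes share replicate numbers, and the deviations of same-numbered libraries did not go together (r = 0.07, -0.28 and 0.20). With 3 libraries per genotype these values cannot settle whether the numbers pair the libraries, and the labels do not say. With the replicate block, 0 of the 7 genes and 296 of all tested genes were DEGs, and the log2 fold change of *Atg16l1* was -0.24. Depth limits *Atg10* most, at 76 to 99 counts per library.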
